A study of Gallus gallus with 48 samples.

Results

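Of the 17108 genes in the expression table, 4 code for the secreted matrix proteases MMP2, MMP11, ADAMTS2 and ADAMTS7, and their transcript levels are described here in brain, heart, liver and lung of chickens kept at high or low altitude. The 4 genes were picked by symbol: they are the table rows whose Ensembl identifiers the study's supplementary gene list pairs with these names. MMP2 is ENSGALG00000003580 on chromosome 11, MMP11 is ENSGALG00000005968 on chromosome 15, ADAMTS2 is ENSGALG00000006000 on chromosome 13 and ADAMTS7 is ENSGALG00000008164 on chromosome 10. The RNA-seq data comprised 48 libraries, 12 per tissue. At 3300 m, 3 libraries per tissue came from Tibetan chickens (TC) and 3 from lowland chickens (HLC), and at 670 m, 3 came from Tibetan chickens (LTC) and 3 from lowland chickens (LC). The meaning of HLC and LTC was read from their letters and the labelled altitude. The labels give no breed, sex, age or length of stay. Altitude cannot be told apart from place, feed or day of sampling, and as no source says that each library is a bird of its own, p-values reflect the spread between these libraries only.

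Matrix metalloproteinases (MMPs) and ADAMTS proteases are zinc-dependent enzymes that cut the proteins of the extracellular matrix. They are made as inactive precursors and are held in check by tissue inhibitors of metalloproteinases, so a transcript level is not an enzyme activity. MMP2, gelatinase A, digests denatured collagen and the type IV collagen of basement membranes, and in mammals it is activated at the cell surface by membrane-type MMPs. MMP11, stromelysin-3, is known from mammals as an enzyme of stromal cells in remodelling tissue that is activated by furin before it leaves the cell. ADAMTS2 removes the amino-terminal propeptide of fibrillar procollagens, a step that mammals need for normal collagen fibrils. ADAMTS7 cleaves cartilage oligomeric matrix protein and thrombospondin in mammals.

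Levels are in FPKM, fragments per kilobase of transcript scaled to the mapped fragments of the library, so they can be compared between genes of different length. Since the table gives no counts, library depth is unknown and the counting error of low values is not known. Column totals ranged over 452395 to 896066 FPKM and 8498 to 11325 genes reached 1 FPKM in a library. Markers of the labelled tissues were checked. The 5 neuron markers summed to at least 796 FPKM in every brain library and to at most 63.7 FPKM in any library of another tissue. The 5 cardiomyocyte markers summed to at least 455 FPKM in every heart library. Outside heart their highest sum was 45.0004 FPKM, in an HLC lung, while TC, LTC and LC lungs reached at most 3.10 FPKM. The part of this signal in the lung values was not tested. The 5 hepatocyte markers summed to at least 3379 FPKM in every liver library, although the urea cycle gene OTC was listed at 0 there. The 5 epithelium markers summed to 32.8 to 106 FPKM in lung. The epithelium sums in liver were 50.7 to 98.8 FPKM, so these markers do not set lung apart, and the lung label was not checked by a marker of its own. The symbol MMP11 rests on the supplementary list. The RefSeq gene table (GRCg7b) lists MMP11 only as another name of SMARCB1, a chromatin remodelling subunit. That gene has an identifier of its own in the supplementary list, and its level ran only over 11.003 to 29.9 FPKM across the 48 libraries.

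Over the 12 libraries of a tissue, all 4 genes had their highest median in lung. MMP2 was the most abundant, with a median of 52.6 FPKM over the 12 lung libraries (range 27.5 to 135), 36.0 in heart (23.5 to 77.3), 4.46 in brain (2.16 to 6.54) and 1.11 in liver (0.465 to 5.17). MMP11 had medians of 17.6 FPKM in lung (4.98 to 78.1), 2.58 in heart (0.689 to 9.86), 1.14 in liver (0.0435 to 15.7) and 0.492 in brain (0.235 to 0.906). It had the widest range of the 4 in liver. For MMP2 the order of lung and heart came from the 670 m libraries: the median was 33.9 FPKM in lung and 34.4 FPKM in heart at 3300 m, and 100.2 FPKM in lung and 45.7 FPKM in heart at 670 m.

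ADAMTS2 had medians of 9.31 FPKM in lung (3.64 to 17.7), 3.11 in heart (2.16 to 8.36), 1.37 in brain (0.590 to 2.45) and 0.767 in liver (0.433 to 1.78). ADAMTS7 had the lowest median of the 4 in each tissue, at 1.76 FPKM in lung (0.717 to 8.24), 0.611 in heart (0.321 to 2.67), 0.529 in liver (0.103 to 1.49) and 0.423 in brain (0.254 to 0.629). Brain and liver levels of ADAMTS7 were thus near the lower end of what the table resolves.

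Tissue pairs were compared in 1 limma fit of all 48 libraries on log2(FPKM + 1), with 16 group means and p-values adjusted over 13353 genes. Most genes differed between tissues in this fit: 83.9% were past the threshold (adjusted p under 0.05) for lung against heart and for lung against brain, 86.6% for lung against liver, 85.7% for liver against brain, 80% for heart against brain and 72.2% for liver against heart. MMP2 was higher in lung than in heart by 0.53 on the log2 scale (SE 0.15, adjusted p = 0.0015) and lower in liver than in brain by -1.21 (adjusted p = 3.17e-09). Both of these neighbours in the order lost their call when all 48 libraries were quantile normalized (0.21, adjusted p = 0.262, and -0.32, adjusted p = 0.0744). MMP11 in liver and heart was not told apart (-0.47, 95% interval -0.94 to 0.01, adjusted p = 0.0758, although -1.14 and 0.000886 with a pseudocount of 0.1), and brain was lower than both. For liver and brain this order came from the 670 m libraries. The MMP11 median at 3300 m was 0.226 FPKM in liver and 0.456 FPKM in brain. At 670 m it was 4.30 FPKM in liver and 0.531 FPKM in brain. ADAMTS2 followed the order lung, heart, brain and liver with every step past the threshold, down to liver minus brain at -0.37 (adjusted p = 0.00967), a step whose sign turned with quantile normalization (0.56, adjusted p = 0.000179). ADAMTS7 in liver and brain was not told apart (0.10, interval -0.14 to 0.33, adjusted p = 0.438) except after quantile normalization (0.77, adjusted p = 3.44e-08), and lung was higher than heart by 0.92 (adjusted p = 4.17e-09, against 0.18 and 0.129 after quantile normalization). Lung against brain and lung against liver held for each of the 4 genes under every alternative run.

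**Figure D1:**
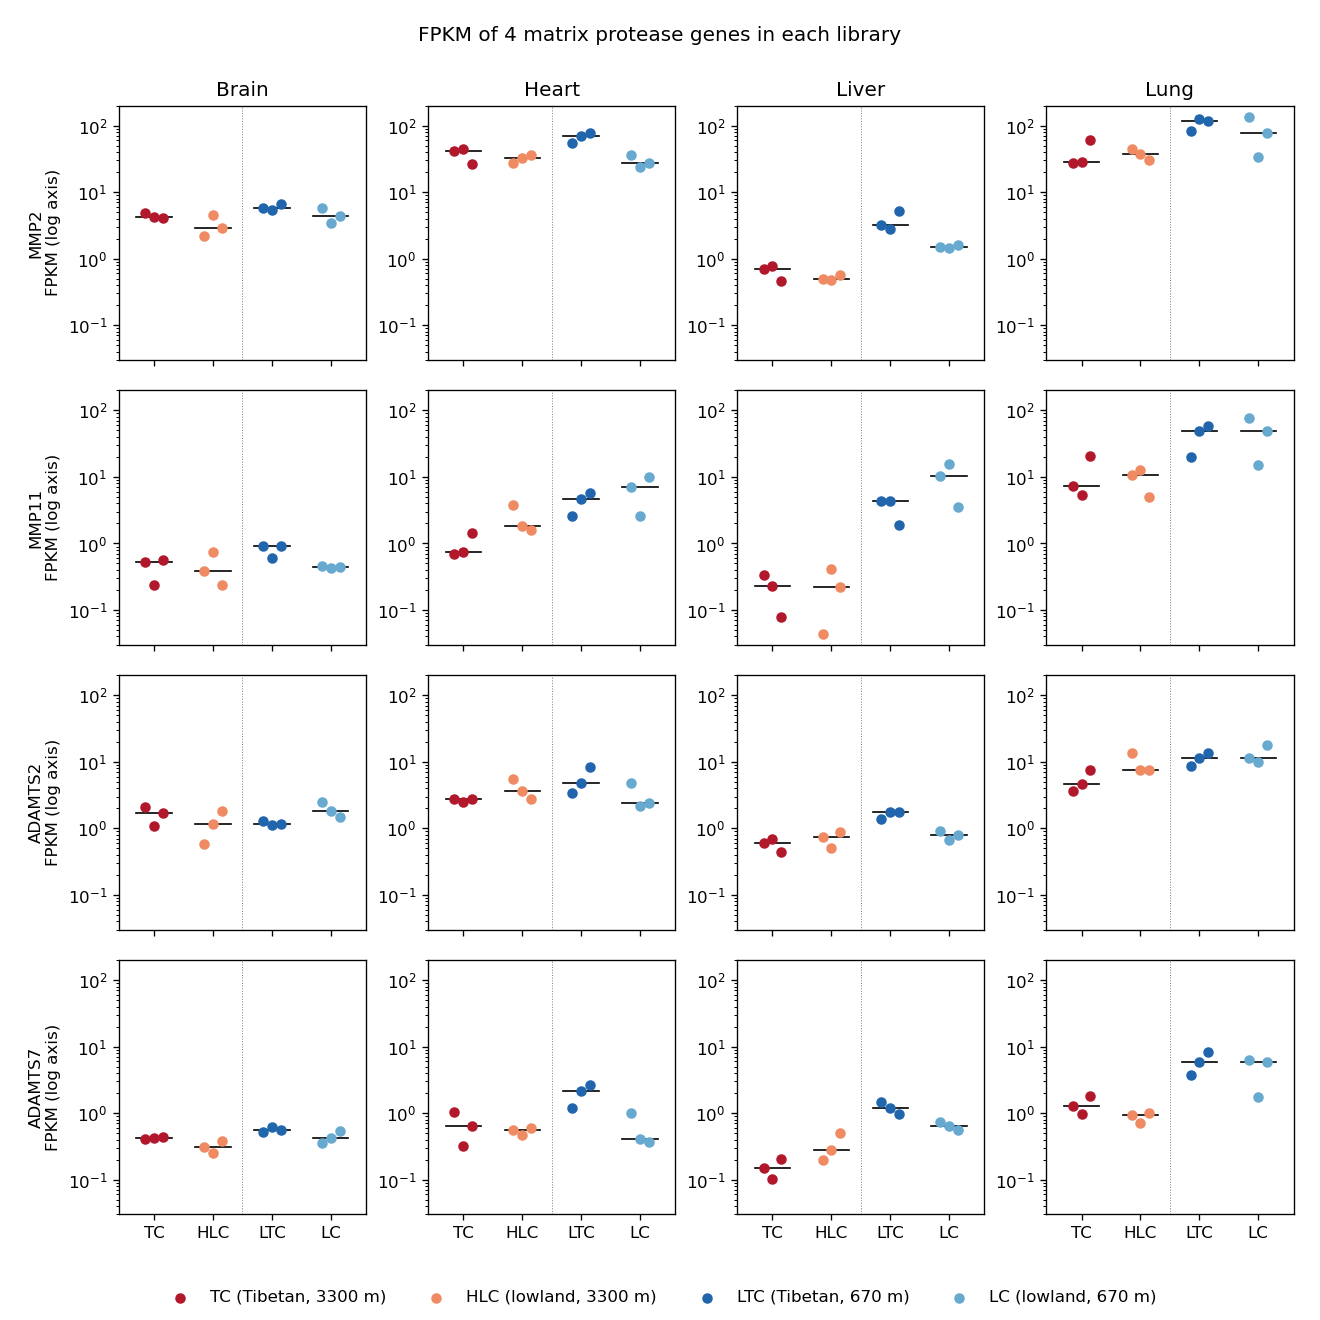
FPKM of MMP2, MMP11, ADAMTS2 and ADAMTS7 (rows, log axis) in brain, heart, liver and lung (columns); each point is 1 library, 3 per group, the short line is the group median, and the dotted line divides the 3300 m groups TC and HLC on the left from the 670 m groups LTC and LC. In liver the 6 libraries at 3300 m lie at or under 0.783 FPKM for MMP2 and 0.417 FPKM for MMP11, below all 6 libraries at 670 m.

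In liver, MMP2, MMP11 and ADAMTS7 were lower at 3300 m than at 670 m in every library. MMP2 had 0.697, 0.783 and 0.465 FPKM in TC livers and 0.497, 0.483 and 0.563 FPKM in HLC livers, against 3.20, 2.78 and 5.17 FPKM in LTC livers and 1.51, 1.44 and 1.61 FPKM in LC livers. MMP11 had 0.337, 0.230 and 0.0790 FPKM in TC livers and 0.0435, 0.417 and 0.222 FPKM in HLC livers, against 4.28, 4.33 and 1.87 FPKM in LTC livers and 10.3, 15.7 and 3.59 FPKM in LC livers. ADAMTS7 had 0.149, 0.103 and 0.207 FPKM in TC livers and 0.195, 0.277 and 0.498 FPKM in HLC livers, against 1.49, 1.21 and 0.967 FPKM in LTC livers and 0.735, 0.635 and 0.560 FPKM in LC livers. The altitude groups did not overlap for these 3 genes, while 10.7% of the 14750 genes above 0 in a liver library had every 3300 m library below every 670 m library. ADAMTS2 had 0.597, 0.699 and 0.433 FPKM in TC livers and 0.728, 0.512 and 0.870 FPKM in HLC livers, against 1.40, 1.78 and 1.73 FPKM in LTC livers and 0.912, 0.676 and 0.806 FPKM in LC livers. For ADAMTS2 every LTC liver lay above every LC liver, as for 8.54% of genes above 0 in liver, and the HLC and LC livers overlapped.

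The mean level of MMP11 was 0.222 ± 0.144 FPKM in the 3300 m livers and 6.66 ± 5.24 FPKM in the 670 m livers (SD, n = 6 each), a ratio of 30.1 between the 670 m and the 3300 m mean. The same ratio was 4.50 for MMP2, 3.91 for ADAMTS7 and 1.90 for ADAMTS2. Tests were run in each tissue with limma on log2(FPKM + 1) for genes that reached 1 FPKM in 3 or more of the 12 libraries, a scale that understates the change of low genes. On this scale MMP11 fell by 2.40 at 3300 m (SE 0.27, adjusted p = 9.56e-05), MMP2 by 1.11 (SE 0.12, adjusted p = 7.13e-05) and ADAMTS2 by 0.41 (SE 0.095, adjusted p = 0.00415), in a tissue where 51.3% of the genes tested were past the threshold for altitude, 41.6% lower and 9.74% higher. In bulk tissue, fewer cells of a type and less RNA per cell cannot be told apart. These 3 genes reached 1 FPKM only in 670 m livers, so passing the filter already required them to be higher there. ADAMTS7 reached it in 2 LTC livers and was not in that fit. Without any filter, where 37.3% of 14750 genes were past the threshold, ADAMTS7 fell by 0.63 (SE 0.072, adjusted p = 0.000306), and the other genes kept their calls, MMP2 with an adjusted p of 0.000221, MMP11 with 0.000377 and ADAMTS2 with 0.00246.

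Much of the liver transcriptome was lower at 3300 m, with a median log2 fold change of -0.249 over the genes tested, which quantile normalization moved to -0.002. That normalization also changed the split of genes past the threshold, with 1780 higher and 1750 lower, against 969 higher and 4136 lower as deposited. Relative to the median gene, MMP11 was lower by -2.15, MMP2 by -0.86 and ADAMTS2 by -0.16, and ADAMTS7 was at -0.51 relative to the median without a filter. ADAMTS2 was not past the threshold after quantile normalization (-0.09, adjusted p = 0.484) or in the fit of all 48 libraries (-0.41, adjusted p = 0.0768). MMP2, MMP11 and ADAMTS7 kept their liver calls under each scaling, filter and fit in which they were tested and without any 1 library. The hepatocyte markers summed to 13163 to 16243 FPKM in TC livers, 3915 to 4370 in HLC livers, 3379 to 4915 in LTC livers and 4194 to 4578 in LC livers, mostly from the fatty acid binding protein gene FABP1. Of the 4 hepatocyte markers tested, 2 were higher at 3300 m and 1 was lower, where 9.74% of liver genes were higher and 41.6% lower. FABP1 (0.867) and FTCD (0.533) were higher, and SLC25A47 was lower (-1.59, adjusted p = 0.000452). The part of these shifts in the liver values was not tested.

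The altitude difference was also taken within each chicken type in liver. In Tibetan chickens (TC minus LTC) 50.7% of genes tested were past the threshold, and MMP2 (-1.49, SE 0.17, adjusted p = 0.000147), MMP11 (-1.84, SE 0.39, adjusted p = 0.0026) and ADAMTS2 (-0.74, SE 0.13, adjusted p = 0.00111) were among them. ADAMTS7, fitted without a filter (36.9% of genes past the threshold), was too (-0.94, SE 0.10, adjusted p = 0.000369). ADAMTS2 passed the filter only through the LTC livers, and without a filter its adjusted p in Tibetan chickens was 0.000865. In lowland chickens (HLC minus LC), where the share was 16.6%, MMP11 (-2.96, adjusted p = 0.000919) and MMP2 (-0.74, adjusted p = 0.0163) were past the threshold, MMP2 not without HLC replicate 2 or LC replicate 2 (adjusted p up to 0.0507). Without a filter the lowland adjusted p was 0.00324 for MMP11 and 0.0236 for MMP2, where 9.44% of genes were past the threshold. ADAMTS2 was at -0.08 (95% interval -0.38 to 0.21, adjusted p = 0.71) and ADAMTS7 at -0.32 without a filter (interval -0.54 to -0.09, adjusted p = 0.0779, 9.44% of genes past the threshold) in lowland chickens. ADAMTS7 crossed the threshold there without HLC replicate 3 (adjusted p = 0.0344). After quantile normalization, MMP2 lost the lowland call (adjusted p = 0.0688) and ADAMTS2 the Tibetan call (adjusted p = 0.134), and MMP2 also lost the lowland call in the fit of all 48 libraries (adjusted p = 0.114).

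The difference between the types was tested as an interaction, the Tibetan minus the lowland altitude difference, which was past the threshold for 14% of liver genes. ADAMTS2 had an interaction of -0.66 (SE 0.19, adjusted p = 0.0398). It reached 1 FPKM only in the 3 LTC livers, so it passed the filter through the group that sets this interaction. Without a filter (7.74% of genes), ADAMTS2 had an adjusted p of 0.0326, and ADAMTS7 had an interaction of -0.62 (SE 0.14, adjusted p = 0.033). Both interactions sat near the threshold. ADAMTS2 lost the call without any 1 of 7 libraries (HLC replicates 1, 2 and 3, LC replicates 2 and 3, TC replicates 2 and 3), with a highest adjusted p of 0.0854. ADAMTS7 lost it without any 1 of 8 (HLC replicates 2 and 3, LC replicates 2 and 3, LTC replicates 1 and 2, TC replicates 2 and 3), with a highest of 0.0796. In the fit of all 48 libraries the adjusted p was 0.279 for ADAMTS2 and 0.249 for ADAMTS7. Both also lost the call with a pseudocount of 0.1 (adjusted p = 0.0646 for ADAMTS2 and 0.0511 for ADAMTS7) and after quantile normalization (0.237 and 0.0532), and ADAMTS2 with upper quartile scaling (0.0753). MMP2 (-0.75, adjusted p = 0.0587) and MMP11 (1.13, interval -0.07 to 2.33, adjusted p = 0.178) were not past the threshold. MMP2 crossed it without LTC replicate 2 (adjusted p = 0.0421) and MMP11 without LC replicate 3 (adjusted p = 0.0349).

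Between chicken types in liver, MMP2 exceeded its lowland level in Tibetan chickens by 0.49 (SE 0.12, adjusted p = 0.0283), where 11% of genes were past the threshold and 2.39% were higher. The call was lost without HLC replicate 2, TC replicate 2 or any of the 3 LC replicates (adjusted p up to 0.0704) and in the fit of all 48 libraries (adjusted p = 0.154). At 670 m every LTC liver lay above every LC liver for MMP2, ADAMTS2 and ADAMTS7, an arrangement that 8.54% of genes above 0 in liver showed. The LTC minus LC difference was 0.87 for MMP2 (adjusted p = 0.0841), 0.55 for ADAMTS2 (adjusted p = 0.152) and 0.43 for ADAMTS7 without a filter (adjusted p = 0.17), and none was past the threshold, which 0.0402% of genes passed. At 3300 m the TC and HLC livers overlapped for all 4 genes and none was past the threshold, although 31.3% of genes were. Averaged over both altitudes, MMP11 was at -0.57 by type (adjusted p = 0.185), and crossed the threshold without LC replicate 3 (-0.84, adjusted p = 0.0362). MMP11 ran the other way at 670 m, with LTC livers at 4.28, 4.33 and 1.87 FPKM against 10.3, 15.7 and 3.59 FPKM in LC livers, groups that overlapped (-1.14, adjusted p = 0.382).

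In lung, all 4 genes were lower at 3300 m, by group means of 1.63 to 4.78 times. MMP2 had 27.5, 28.03 and 61.2 FPKM in TC lungs and 44.0, 37.3 and 30.4 FPKM in HLC lungs, against 82.9, 124 and 117 FPKM in LTC lungs and 135, 33.5 and 77.6 FPKM in LC lungs. MMP11 had 7.34, 5.27 and 20.3 FPKM in TC lungs and 10.5, 12.7 and 4.98 FPKM in HLC lungs, against 20.2, 48.7 and 57.8 FPKM in LTC lungs and 78.1, 14.9 and 48.3 FPKM in LC lungs. For MMP2 the altitude groups overlapped only through LC replicate 2, the lowest 670 m lung. For MMP11, TC replicate 3, the highest 3300 m lung, lay above LC replicate 2 and slightly above LTC replicate 1.

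ADAMTS7 had 1.28, 0.955 and 1.79 FPKM in TC lungs and 0.928, 0.717 and 1.01 FPKM in HLC lungs, against 3.75, 5.96 and 8.24 FPKM in LTC lungs and 6.36, 1.73 and 5.83 FPKM in LC lungs. Here the same pair of libraries, TC replicate 3 and LC replicate 2, made the only overlap. ADAMTS2 had 3.64, 4.71 and 7.51 FPKM in TC lungs and 13.5, 7.44 and 7.57 FPKM in HLC lungs, against 8.59, 11.3 and 13.5 FPKM in LTC lungs and 11.3, 10.04 and 17.7 FPKM in LC lungs. For ADAMTS2 it was HLC replicate 1 that reached into the 670 m range, and LC replicate 2 was not the lowest. None of the 4 genes had all 3300 m lungs below all 670 m lungs, as 3.66% of genes did.

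In the lung fit 17.1% of 11601 genes were past the threshold for altitude with 11.6% lower and 5.57% higher, and a median log2 fold change of -0.04. ADAMTS7 fell by 1.498 (SE 0.25, adjusted p = 0.00377) and MMP11 by 1.97 (SE 0.44, adjusted p = 0.0138), and both kept the call without any 1 library (adjusted p up to 0.012 for ADAMTS7 and 0.038 for MMP11). MMP2 fell by 1.23 (SE 0.31, adjusted p = 0.0219), a call lost without LTC replicate 2, LTC replicate 3 or TC replicate 2 (adjusted p = 0.0551, 0.0531 and 0.0545). ADAMTS2 fell by 0.70 (SE 0.20, adjusted p = 0.0376), a call lost without any 1 of 8 libraries, namely HLC replicates 2 and 3, LC replicates 1 and 3, LTC replicates 2 and 3 and TC replicates 1 and 2 (adjusted p up to 0.0907), and also without a filter (adjusted p = 0.0581) or after quantile normalization (-0.64, adjusted p = 0.0576). Ordered from the lowest fold change up, MMP11 stood at place 13 of the 11601 genes, ADAMTS7 at 37, MMP2 at 73 and ADAMTS2 at 494.

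Within Tibetan chickens in lung (TC minus LTC, 12.1% of genes past the threshold), ADAMTS7 (-1.54, adjusted p = 0.0203), MMP2 (-1.53, adjusted p = 0.0434) and ADAMTS2 (-0.98, adjusted p = 0.0489) were past the threshold and MMP11 was not (-1.93, adjusted p = 0.0678). ADAMTS7 lost this call without LTC replicate 2 or 3 or TC replicate 1 or 2 (adjusted p up to 0.0773). MMP2 lost it without any 1 of 9 libraries (HLC replicates 1, 2 and 3, LC replicate 3, LTC replicates 1, 2 and 3, TC replicates 1 and 2), with adjusted p up to 0.143, and ADAMTS2 without any 1 of 8 (HLC replicates 2 and 3, LC replicates 1 and 2, LTC replicates 2 and 3, TC replicates 1 and 2), with adjusted p up to 0.162. The Tibetan calls of MMP2 and ADAMTS2 were also lost without a filter (adjusted p = 0.0663 for MMP2 and 0.0724 for ADAMTS2) and with upper quartile scaling (0.0594 and 0.069), and that of ADAMTS2 after quantile normalization (0.0806) and without a trend (0.0523). Every TC lung lay below every LTC lung for MMP2, ADAMTS2 and ADAMTS7, as for 23.2% of genes. MMP11 gained it without TC replicate 3, LTC replicate 1 or LC replicate 2, with a lowest adjusted p of 0.0363. Within lowland chickens (HLC minus LC, 3.89% of genes), ADAMTS7 was past the threshold (-1.46, adjusted p = 0.0438), but not without any 1 of 8 libraries (HLC replicates 1, 2 and 3, LC replicates 1 and 3, LTC replicate 2, TC replicates 1 and 2; adjusted p up to 0.155), nor without a filter (0.0684) or after quantile normalization (0.066). In lowland lungs MMP11 (-2.01, adjusted p = 0.10), MMP2 (-0.92, adjusted p = 0.256) and ADAMTS2 (-0.42, adjusted p = 0.429) were not. Without LC replicate 2, MMP11 (adjusted p = 0.0339) and MMP2 (adjusted p = 0.0494) crossed it in lowland chickens. In the fit of all 48 libraries, MMP11 in lung was past the threshold within Tibetan (adjusted p = 0.00731) and within lowland chickens (adjusted p = 0.00873). The share of all genes past the threshold in that fit was not counted for these contrasts. No lung interaction was past the threshold for the 4 genes (0.509% of genes were). The interval of the interaction was wide, from -1.87 to 2.03 for MMP11 and from -1.17 to 1.00 for ADAMTS7. Chicken type gave no call in lung either (0.0431% of genes), with ADAMTS2 lower in Tibetan than in lowland chickens by -0.46 (adjusted p = 0.325).

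**Figure D2:**
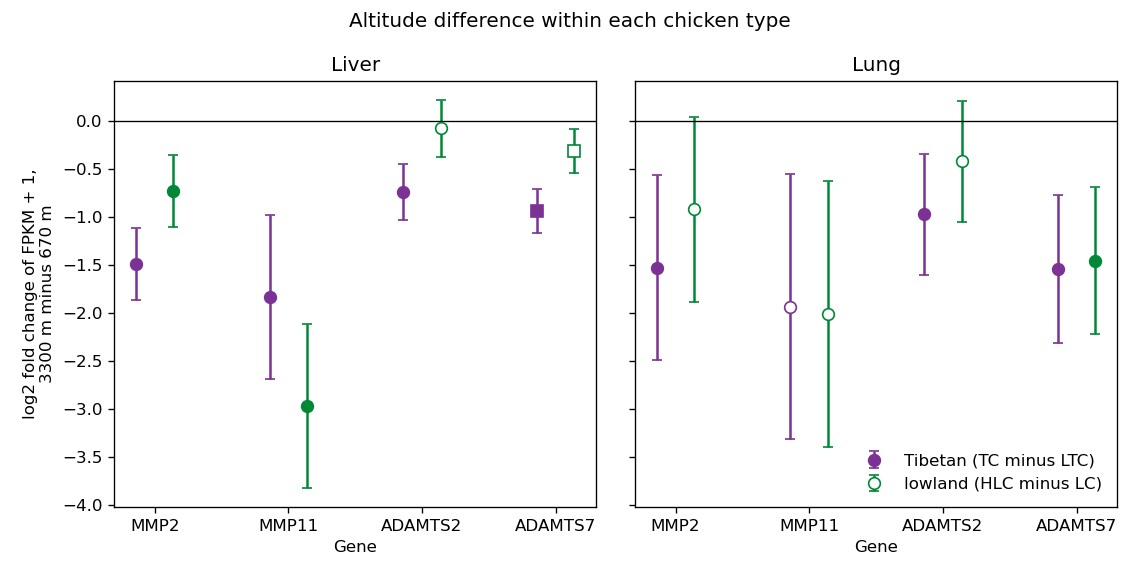
Altitude difference (log2 fold change of FPKM + 1, 3300 m minus 670 m, with 95% intervals) in Tibetan (purple, TC minus LTC) and lowland chickens (green, HLC minus LC), 3 libraries per group, in liver (left) and lung (right); filled markers had an adjusted p under 0.05 and squares come from the fit without a filter. In liver, ADAMTS2 was at -0.74 in Tibetan and -0.08 in lowland chickens, while ADAMTS7 in lung was at -1.54 and -1.46.

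Heart and brain gave no call for any of the 4 genes, in tissues where 0.0193% and 2.26% of genes were past the threshold for altitude. MMP11 in heart had 0.689, 0.752 and 1.44 FPKM in TC hearts and 3.78, 1.82 and 1.58 FPKM in HLC hearts, against 2.61, 4.66 and 5.69 FPKM in LTC hearts and 7.11, 2.55 and 9.86 FPKM in LC hearts. A single HLC heart reached into the 670 m range. The difference was -1.24 (SE 0.28, 95% interval -1.85 to -0.62) with an unadjusted p of 0.00089 and an adjusted p of 0.369, at place 11 from the lowest fold change of 10376 genes.

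MMP2 in heart had 41.3, 44.4 and 26.2 FPKM in TC hearts and 27.5, 33.1 and 35.7 FPKM in HLC hearts, against 55.0, 69.4 and 77.3 FPKM in LTC hearts and 36.4, 23.5 and 27.6 FPKM in LC hearts. ADAMTS7 had at most 1.04 FPKM in TC, HLC and LC hearts, against 1.21, 2.18 and 2.67 FPKM in LTC hearts. For both genes every LTC heart lay above every LC heart, as for 19.1% of genes tested. ADAMTS7 reached 1 FPKM in the 3 LTC hearts and 1 TC heart. It thus passed the filter through the LTC hearts, which partly required it to be high there. Without a filter its adjusted p was 0.323 for LTC minus LC and 0.156 for TC minus LTC. Every TC heart lay below every LTC heart for all 4 genes, as for 25.9% of genes tested, with TC minus LTC differences of -0.85 for MMP2, -1.41 for MMP11, -0.77 for ADAMTS2 and -0.85 for ADAMTS7 (adjusted p = 0.114 to 0.219), beside a median of -0.244 over all genes and 0 genes past the threshold (1898 had an unadjusted p under 0.05). Fibroblast markers summed to 224 to 287 FPKM in TC and 261 to 484 FPKM in HLC hearts, against 341 to 671 FPKM in LTC and 234 to 440 FPKM in LC hearts, and endothelium markers to 43.0 to 88.7 FPKM in TC and 102 to 182 FPKM in HLC hearts, against 150 to 197 FPKM in LTC and 84.6 to 118 FPKM in LC hearts. Their part in the protease values was not tested in this comparison. The median heart gene was higher in LTC than in LC hearts by 0.24 on the log2 scale. The LTC minus LC difference was 1.19 for MMP2 (adjusted p = 0.235) and 0.92 for ADAMTS7 (adjusted p = 0.315), and 0 genes were past the threshold in limma (1289 had an unadjusted p under 0.05). In the fit of all 48 libraries both were past the threshold (adjusted p = 0.0184 for MMP2 and 0.0183 for ADAMTS7), as were the TC minus LTC differences of MMP11 (0.0434), ADAMTS2 (0.0481) and ADAMTS7 (0.013). ADAMTS2 ranged over 2.16 to 8.36 FPKM in heart, with its highest library in LTC (8.36 FPKM), and an altitude difference of -0.24 (interval -0.72 to 0.24).

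In brain MMP2 had 4.83, 4.17 and 4.10 FPKM in TC brains and 2.16, 4.51 and 2.86 FPKM in HLC brains, against 5.83, 5.47 and 6.54 FPKM in LTC brains and 5.69, 3.42 and 4.40 FPKM in LC brains. TC and LTC brains did not overlap, as for 5.07% of genes, HLC and LC brains did, and the altitude difference was -0.39 (interval -0.70 to -0.08, adjusted p = 0.174). ADAMTS2 was at -0.09 (interval -0.43 to 0.25). MMP11 and ADAMTS7 stayed under 1 FPKM in all 12 brain libraries, and without a filter (1.42% of genes past the threshold) their differences were -0.16 (adjusted p = 0.427) and -0.13 (adjusted p = 0.138).

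**Figure D3:**
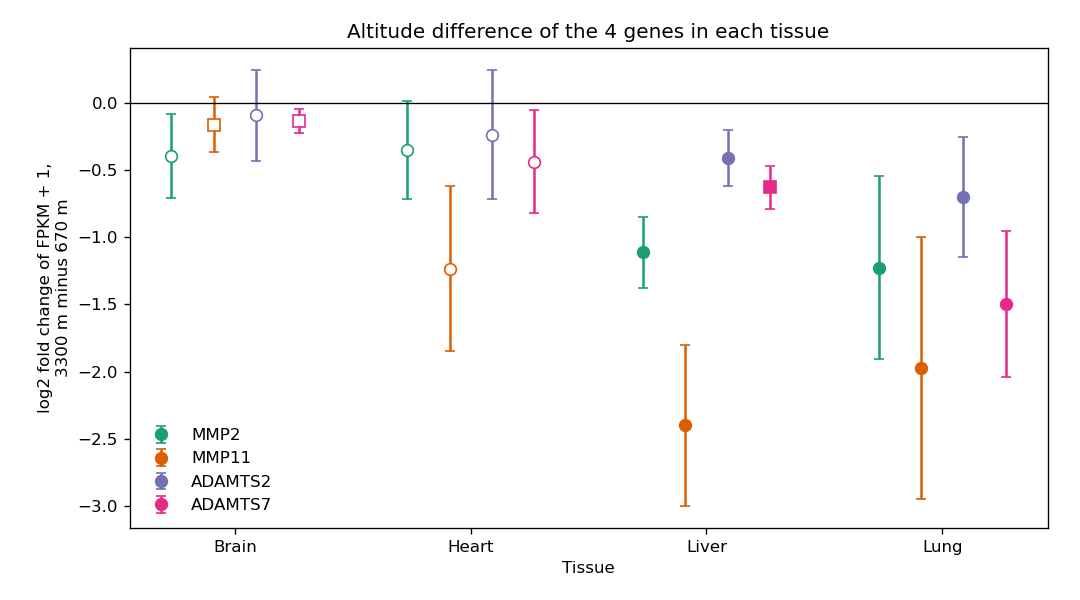
Altitude difference of the 4 genes by tissue (log2 fold change of FPKM + 1, 6 libraries at 3300 m minus 6 at 670 m, with 95% intervals); filled markers had an adjusted p under 0.05 and squares come from the fit without a filter. All 16 values are below 0, with MMP11 at -2.40 in liver and -1.97 in lung the lowest, and brain values between -0.39 and -0.09.

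Whether the altitude difference itself differed between tissues was tested in the fit of all 48 libraries. On the log2(FPKM + 1) scale ADAMTS7 fell further in lung than in the other tissues: the difference of differences was -1.36 against brain (SE 0.23, adjusted p = 0.000237, 5.08% of genes past the threshold), -1.06 against heart (adjusted p = 0.0136, 1.28% of genes) and -0.87 against liver (adjusted p = 0.00806, 19.6% of genes). The ratio of its 670 m to its 3300 m mean FPKM was 4.78 in lung and 3.91 in liver. The log2(FPKM + 1) scale compresses the low liver and heart values, and with a pseudocount of 0.1 the lung against liver value was -0.44 (adjusted p = 0.453) and the lung against heart value -1.31 (adjusted p = 0.146). MMP11 fell further in liver than in brain (-2.24, SE 0.47, adjusted p = 0.000714, 24.1% of genes) and in lung than in brain (-1.81, adjusted p = 0.0169). With a pseudocount of 0.1 the lung against brain value of MMP11 was -1.67 (adjusted p = 0.176). MMP11 was not past the threshold for liver against heart (-1.17, adjusted p = 0.0798) or lung against liver (0.43, adjusted p = 0.583). Both crossed it with that pseudocount (adjusted p = 0.00308 and 0.0127). ADAMTS7 for liver against brain also did (adjusted p = 0.0147, against 0.121). For ADAMTS2 no such difference was past the threshold. For MMP2 none was either, but those of liver against brain (-0.72, adjusted p = 0.0799) and heart (-0.76, adjusted p = 0.0747, 18.6% of genes past the threshold) crossed it with a pseudocount of 0.1 (-1.38 and -1.504) and with a block for group and replicate number (adjusted p = 0.0496 and 0.044), and all 4 of liver or lung against brain or heart did without the lung library LC replicate 2 (adjusted p = 0.0335, 0.0297, 0.00656 and 0.0105). The MMP2 difference between lung and liver was -0.11, with an interval from -0.73 to 0.50.

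Levels in the 12 lung libraries varied together for 3 of the genes. Over these libraries the Pearson correlation of log2(FPKM + 1) was 0.941 between MMP2 and MMP11, 0.918 between MMP2 and ADAMTS7 and 0.923 between MMP11 and ADAMTS7. ADAMTS2 correlated less, at 0.625 to 0.707 with the others. By rank (Spearman) the same 3 pairs were at 0.916, 0.783 and 0.867, and ADAMTS2 was at 0.58 to 0.692, so it stood less apart. After the group means were taken out, MMP2 and MMP11 still correlated at 0.932, so they also varied together among replicates of 1 group. In liver the corresponding value was -0.474. The points share libraries and their scaling, and these correlations are given as descriptions.

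The genes whose lung levels were most like those of the 4 proteases came from 888 genes with a symbol and a mean of at least 1 FPKM. SNAI2, a zinc finger transcription factor of mesenchymal cells, was first for MMP2 (r = 0.957) and for MMP11 (r = 0.912) and was among the 3 highest for ADAMTS7 (r = 0.947), where CNOT6, a subunit of a deadenylase complex, led with 0.973. The others were FBXO25 (0.953), an F-box protein gene, and the collagen VI chain gene COL6A2 (0.951) for MMP2, SPARC, a collagen-binding glycoprotein gene, and the leukocyte marker IGSF6 (both 0.912) for MMP11, and the neuron marker STMN2 (0.949) for ADAMTS7. For ADAMTS2 the 3 were CPED1, CDCA2 and EPS8 (0.89, 0.879 and 0.877). In the 12 liver libraries, ITGA8, an integrin subunit of mesenchymal cells, was first for MMP2 (0.946), ADAMTS2 (0.908) and ADAMTS7 (0.936), and the teneurin gene ODZ2 was first for MMP11 (0.934). Over all 48 libraries, where the tissues set most of the spread, PXDN, a peroxidase that cross-links collagen IV, was first for MMP2 (0.964), MBTPS1 for MMP11 (0.874), FBXL7 for ADAMTS2 (0.94) and SNAI2 for ADAMTS7 (0.831).

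Other proteases of the same families differed in level by tissue. Of 6 listed, MMP10 reached at most 1.4454 FPKM in any library, ADAMTS18 at most 0.404 FPKM and ADAMTS20 at most 0.744 FPKM. The membrane-anchored MMP17 was highest in brain, above all 4 genes there, at 14.3 ± 4.03 FPKM in the 3300 m brains and 15.4 ± 2.60 FPKM in the 670 m brains (SD, n = 6 each). The collagenase gene MMP13 reached 1 FPKM only in lung, at 2.04 ± 1.21 FPKM in the 3300 m lungs and 2.996 ± 1.73 FPKM in the 670 m lungs (SD, n = 6 each). None of the 3 tested in lung was past the threshold for altitude, MMP16, a membrane-type activator of MMP2 in mammals, being nearest at -0.31 (adjusted p = 0.0833). In liver only MMP17 was tested, at -0.29 (adjusted p = 0.0766). Its TC minus LTC difference was -0.57 (adjusted p = 0.0203), a call that 50.7% of the liver genes tested shared. The median over all genes in that comparison was -0.363. The MMP17 interaction of -0.56 was not past the threshold (adjusted p = 0.149).

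Of the list of matrix proteins and enzymes that process them, 7 of the 13 members tested were lower in lung at 3300 m and none was higher, where 11.6% of all lung genes were lower, with a list median of -0.69 beside -0.04 for all genes. LAMC1, a laminin chain of basement membranes, averaged 29.0 ± 2.60 FPKM in the 3300 m lungs and 51.5 ± 12.1 FPKM in the 670 m lungs (SD, n = 6 each; log2 fold change -0.78, adjusted p = 0.00669). The collagen V chain gene COL5A1 (-0.84, adjusted p = 0.00564), SPARC (-1.19, adjusted p = 0.0076), the proteoglycan genes GPC1 (-0.57, adjusted p = 0.00911) and SPOCK1 (-0.80, adjusted p = 0.0126) and COL6A2 (-1.01, adjusted p = 0.0195, lost without LTC replicate 2 or 3, up to 0.0508) fell with them. In liver 5 of 9 matrix genes tested were lower and none was higher, where 41.6% of all liver genes were lower, with a median of -0.34 beside -0.249 for all genes, so this count is near the share over all genes. SPARC (-1.06, adjusted p = 0.000136) and LAMC1 (-0.70, adjusted p = 0.00161) were also past the threshold after quantile normalization, while COL5A1 (-0.43), the lysyl hydroxylase gene PLOD2 (-0.46) and COL12A1 (-0.34) were not, and COL12A1 also lost its call without any 1 of 9 libraries, all but HLC replicate 3, LC replicate 2 and LTC replicate 2 (adjusted p up to 0.111). In brain and heart no matrix gene of 14 and 12 tested was past the threshold.

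Among 12 genes of growth factors, transcription factors and receptors linked to matrix remodelling, 4 of 10 tested were lower and 1 was higher in lung at 3300 m, where 11.6% of all genes were lower and 5.57% higher. SNAI2 averaged 14.1 ± 4.06 FPKM in the 3300 m lungs and 42.3 ± 21.6 FPKM in the 670 m lungs (SD, n = 6 each; -1.38, adjusted p = 0.0104). The immediate early gene EGR1 was the one that was higher (0.88, adjusted p = 0.0123). The hyaluronan receptor gene CD44 (-0.41), the growth factor gene IGF-I (-1.16) and the hepatocyte growth factor gene, listed as HGF/SF (-0.37), were lower, but lost the call without single libraries. CD44 lost it without any 1 of 5 (LC replicate 1, LTC replicates 1 and 3, TC replicates 1 and 2; up to 0.0611), IGF-I without any 1 of the 6 libraries at 3300 m (up to 0.0584) and HGF/SF without any 1 library but LC replicate 2 (up to 0.104). In liver, where 41.6% of all genes were lower, 5 of 9 were lower, a count near that share: ITGA8 (0.522 ± 0.209 FPKM in the 3300 m livers and 1.88 ± 0.813 FPKM in the 670 m livers, SD, n = 6 each; -0.88, adjusted p = 0.000229), IGF-I (-1.37), HGF/SF (-0.54), its receptor gene C-MET (-0.61) and the oestrogen receptor gene ESR1 (-0.89). After quantile normalization only ITGA8 and IGF-I of these were past it in liver. At these levels ITGA8 passed the filter only through the 670 m livers, which already required it to be higher there. It kept its call without a filter.

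Markers of matrix-producing cells moved with the lung proteases. Of 8 fibroblast markers, which share COL5A1, COL6A2, COL12A1, SPARC, LOXL2, SMOC2 and SNAI2 with the lists above, 6 were lower in lung at 3300 m (11.6% of all genes were), and they summed to 511 to 669 FPKM in TC and 361 to 537 FPKM in HLC lungs, against 745 to 1665 FPKM in LTC and 658 to 1246 FPKM in LC lungs. The 670 m lung lowest for MMP2, LC replicate 2, was also the lowest at 670 m for these markers. LOXL2, counted among these 6 and among the 7 lower matrix genes in lung above, was at -0.69 (adjusted p = 0.0441). It lost the call without any 1 of 8 libraries (up to 0.0987). The call was also lost without a filter, after quantile normalization and with upper quartile scaling. The neuron markers, of which 2 were tested in lung, summed to 8.35 to 21.1 FPKM in TC and 9.58 to 10.3 FPKM in HLC lungs, against 47.9 to 63.7 FPKM in LTC and 17.7 to 53.0 FPKM in LC lungs, and STMN2, a microtubule-binding protein gene of neurons that made up most of these sums, was lower by -2.18. The other one tested, the tubulin gene TUBB3, was at 0.35 (adjusted p = 0.40). Leukocyte markers were lower in 4 of 6, with sums of 102 to 140 FPKM in TC and 120 to 204 FPKM in HLC lungs, against 142 to 174 FPKM in LTC and 114 to 148 FPKM in LC lungs, while none of 4 smooth muscle, 4 endothelium and 4 tested epithelium markers was past the threshold. In liver, with 41.6% of all genes lower, 4 of 7 fibroblast markers tested were lower at 3300 m, a count near that share. The sums stood apart in LTC livers, with 102 to 119 FPKM, against 45.6 to 56.6 FPKM in TC, 48.3 to 59.7 FPKM in HLC and 45.9 to 70.3 FPKM in LC livers. Of the 4 lower markers, COL5A1, COL12A1 and SFRP2 lost the call after quantile normalization and SPARC kept it. SFRP2 (-0.37, adjusted p = 0.0397) also lost it without any 1 of 7 libraries (up to 0.0908). Leukocyte markers were lower in 5 of 6 in liver, with sums of 20.7 to 35.6 FPKM in TC and 19.2 to 25.3 FPKM in HLC livers, against 35.5 to 45.2 FPKM in LTC and 42.6 to 46.4 FPKM in LC livers, and endothelium markers in 3 of 4, with sums of 50.8 to 98.9 FPKM in TC and 33.3 to 53.4 FPKM in HLC livers, against 44.5 to 52.2 FPKM in LTC and 38.0 to 47.7 FPKM in LC livers. The endothelium sums were thus not lower in TC livers. Between TC and LTC livers, 3 of the 4 endothelium markers were lower and 1 was higher, where 50.7% of genes were past the threshold in either direction. The part of neuron, leukocyte and endothelium markers in the protease values was not tested.

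Each protease was also set against the mean log2(FPKM + 1) of the 8 fibroblast markers in the same library, a comparison chosen after seeing the data and tested with a 2-sided exact permutation test of 6 against 6 libraries, whose smallest possible p is 0.00216. In lung the marker mean itself was lower at 3300 m by -0.88 (exact p = 0.00216). Relative to it, MMP11 (-1.10, exact p = 0.0173) and ADAMTS7 (-0.62, exact p = 0.00433) were lower at 3300 m, MMP2 was at -0.35 (exact p = 0.177) and ADAMTS2 at 0.18 (exact p = 0.537). In liver the marker mean was lower by -0.32 (exact p = 0.0411), and MMP11 (-2.08), MMP2 (-0.79) and ADAMTS7 (-0.31) were lower relative to it in every library (exact p = 0.00216 each), while ADAMTS2 was not past the threshold (-0.09, exact p = 0.193). In heart, MMP11 was at -0.99 (exact p = 0.013), and the other 7 values in heart and brain had an exact p of at least 0.141. These p-values are not adjusted over the 16 comparisons. The comparison gives levels relative to these markers and says nothing of a cause.

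**Figure D4:**
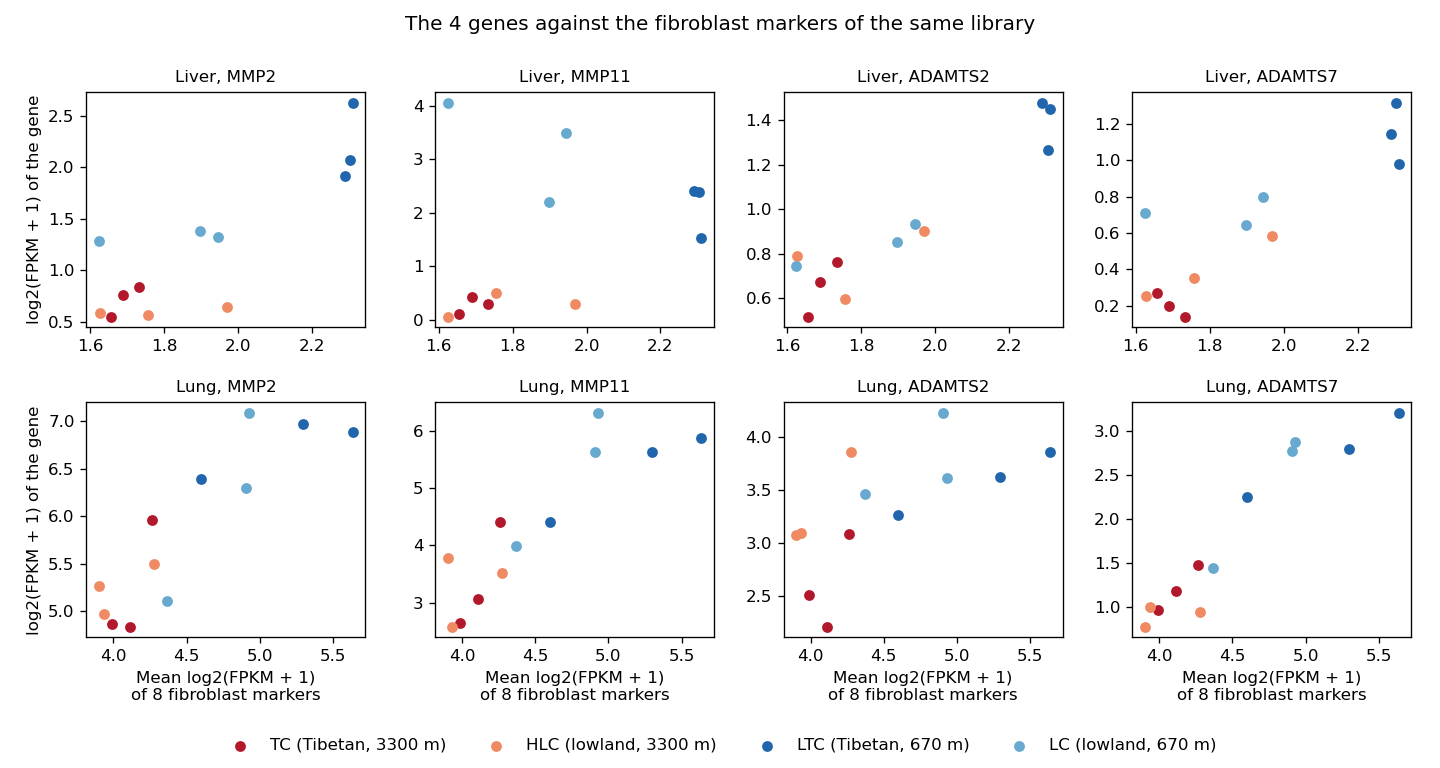
log2(FPKM + 1) of each protease gene against the mean log2(FPKM + 1) of 8 fibroblast markers in the same library, in liver (top) and lung (bottom), 1 point per library and 3 per group, with a separate vertical scale in each panel. In lung the 6 libraries at 3300 m all have lower marker means than the 6 at 670 m, and in liver the 3 LTC libraries have the highest marker means.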

How the data were processed

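Libraries were made from total RNA with an Illumina TruSeq kit. According to the submitters' processing notes, TopHat and Cufflinks 2.2.1 were used with galGal4. The authors deposited FPKM values per Ensembl gene, and the sources used here give neither annotation release, Cufflinks options nor use of strand. The paper describes no RNA-seq, so no design could be taken from it. No count test was used because the deposited FPKM values hold no counts.

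For each tissue, log2(FPKM + 1) of genes that reached 1 FPKM in 3 or more of 12 libraries was modelled with limma 3.58.1 (R 4.3.3), with 4 group means, moderation with a trend, 2-sided tests and Benjamini-Hochberg adjustment over all genes tested. The altitude difference sets both 3300 m groups against both 670 m groups, and the type difference both Tibetan groups against both lowland groups, with equal weights. Genes failing the filter were taken from the fit without one. The fit was run on simulated data with planted differences, the interaction at 2 on the log2 scale. That is larger than any interaction reported here, so the run does not show how well such interactions are recovered. Symbols covered 1181 genes (6.9%).

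The 4 genes and all lists were chosen with earlier results of these data known. Beyond the 4 genes, the text names up to 6 members per list past the threshold, smallest p first, and the 3 genes most alike by Pearson correlation. MMP10, MMP13, MMP16, ADAMTS18, ADAMTS20, OTC, FABP1 and SMARCB1, and MMP17 outside Tibetan livers, were named after their values were seen. Alternatives were a pseudocount of 0.1, no filter, a mean of at least 5 FPKM, quantile normalization, upper quartile scaling, no trend, 1 fit of all 48 libraries, a block for replicate number, and omission of each library in turn. Deviations from group means were correlated between libraries of the same tissue and replicate number. Only for TC and LTC brains were all 3 correlations over 0.1 (0.427, 0.452 and 0.373). No label pairs these libraries, and with 3 libraries per group this is no evidence of a paired design.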

Additional observations from a re-analysis of the deposited data

Results flagged for a closer look

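The altitude difference (3300 m minus 670 m, log2 scale) differed between chicken types in liver for ADAMTS2 (interaction -0.66) and ADAMTS7 (-0.62, without a filter), both more negative in Tibetan chickens. It differed between tissues for ADAMTS7, with lung lower than brain by -1.36, than heart by -1.06 and than liver by -0.87. For MMP11 it was more negative than in brain by -2.24 in liver and by -1.81 in lung. Each of these is a tested difference with an adjusted p under 0.05 from limma, but ADAMTS2 passed the liver filter only through the LTC livers. The liver interactions were lost with a pseudocount of 0.1 (adjusted p = 0.0646 for ADAMTS2 and 0.0511 for ADAMTS7) and after quantile normalization (0.237 and 0.0532). With a pseudocount of 0.1, ADAMTS7 was at -1.31 for lung against heart (adjusted p = 0.146) and -0.44 for lung against liver (0.453), and MMP11 at -1.67 for lung against brain (0.176), none of them past the threshold. The tissue differences kept their call without any 1 of the 48 libraries, and the liver interactions did not.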

How the results depend on the processing

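Of 604 values for altitude and type of the 4 genes under the alternatives listed in the methods, none turned sign past the threshold, 581 kept their side of it, 21 lost and 2 gained a call. The 581 include results with no call to lose, such as every altitude result in brain and heart. They therefore do not measure how stable the calls were. In the fit of all 48 libraries, MMP2 by type was at 0.49 in liver (adjusted p = 0.154) and at 0.69 in heart (0.0452, a gained call), and ADAMTS2 by altitude was at -0.41 in liver. The share of all genes past the threshold by type in that fit was not counted. ADAMTS2 lost its altitude call with quantile normalization in liver (-0.0891) and lung (-0.64), and without a filter in lung (-0.70). Relative to fibroblast markers, ADAMTS2 was at -0.08913 in liver and turned to 0.18 in lung, and MMP2 was at -0.35 in lung. Leaving out 1 library gave -0.83 to -0.59 for ADAMTS2 and -1.49 to -0.995 for MMP2 by altitude in lung, and 0.39 to 0.57 for MMP2 and -0.84 to -0.37 for MMP11 by type in liver. Without any 1 of the LTC libraries, ADAMTS2 failed the liver filter and was not tested. ADAMTS2 in liver minus brain turned to 0.56 with quantile normalization. Genes past the threshold for altitude numbered 5105 in liver, 2674 with a mean of at least 5 FPKM, and 1986 in lung, 1160 to 2157 without 1 library, lowest without LTC replicate 3. The cause was not tested. The strict filter left MMP2, MMP11, ADAMTS2 and ADAMTS7 untested where their mean was under 5 FPKM. With the replicate block, MMP2 (-1.53, adjusted p = 0.0624) and ADAMTS2 (-0.98, 0.057) lost the Tibetan lung call, ADAMTS2 (-0.66, 0.0736) and ADAMTS7 (-0.62, 0.0633) lost the liver interaction, and no altitude or type call of the 4 genes changed, nor any in TC and LTC brains. The lung growth factor and receptor list kept 1 of its 4 lower calls with the block. A block for group and replicate number in the fit of all 48 libraries brought the MMP2 altitude differences of liver against brain (-0.72, 0.0496) and heart (-0.76, 0.044) past the threshold. Libraries of the same group and number in 2 tissues had median correlations of 0.097 to 0.143 of their deviations, and no source says that they share a bird. Values under about 1 FPKM have no known counting error.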
